A study of Ictalurus punctatus x Ictalurus furcatus and Ictalurus furcatus and Ictalurus punctatus with 8 samples.

Results

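The complement and clotting plasma proteins were represented by 76 of the 13444 genes in the catfish liver table. These 76 members were the genes whose symbol matched a fixed set of name patterns for the complement components and their regulators (c1r, c4, c5, cfb, masp1), the clotting factors and fibrinogen (f2, f10, fgb), the anticoagulants and fibrinolysis genes (PROC, plg, cpb2), the serpins, the inter-alpha-trypsin inhibitors and the lysozymes. The patterns used the symbol alone and no measured value. They also took 12 genes that are not plasma complement or clotting proteins, such as c1ql3b, mblac1 and cfdp1, and these were kept as members and described apart. Most of the remaining members encode proteins that hepatocytes secrete into blood. They include 6 serpins, such as serpinf1, that were grouped as other serpins and not with complement or clotting.

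Complement and clotting are cascades of plasma proteases that are made largely in the liver and circulate as inactive precursors. In complement, the classical and lectin pathways (C1q, C1r, C1s and the MASP proteases) cleave C4 and C2, the alternative pathway (factors B and D, with properdin) amplifies C3 cleavage, and all routes lead through C5 to the membrane attack complex of C6 to C9, held back by factor I, factor H-like proteins, vitronectin and the C1 inhibitor. In clotting, factors VII, IX, X and V lead to thrombin, which turns fibrinogen into fibrin, while antithrombin and protein C restrain thrombin formation and plasmin dissolves the clot. These roles are known mainly from mammals.

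RNA-seq was performed on the liver of 8 catfish at 12 months of age, 2 fish from each of 4 genetic types. PC was channel catfish, PB was blue catfish, F1BC was the hybrid of a blue catfish female and a channel catfish male, and F1CB was the reciprocal hybrid of a channel catfish female and a blue catfish male. No treatment is named for any group, each type was kept in its own tank, so that genetic type and tank cannot be told apart, and the reads of all types were mapped to the channel catfish genome. The study also assayed lysozyme and alternative complement activity in plasma. The plasma came from a separate random selection of fish at a younger age than these livers. The question here was how the transcripts of these proteins differed among the types. The assays measured activity in plasma and not RNA in liver, so the transcript levels do not stand for them.

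Values are given as CPM (counts scaled to a fixed library total), on which the 8 libraries each summed to between 996838 and 998652, and the sequencing depth behind them is unknown. Differences are given as log2FC, the difference of mean log2(CPM + 0.5), which understates the change of low genes, with its standard error (SE) and a Benjamini-Hochberg adjusted p from limma over 13420 tested genes. A DEG had an adjusted p below 0.05 and an absolute log2FC above 1.5. With 2 livers a type, an exact permutation test of a single gene cannot give a p below 0.33. The tissue label was checked against 19 hepatocyte marker genes, led by wap65-1 and apoa1b, which summed to between 128113 and 207016 CPM in every liver, and 11 exocrine pancreas markers summed to between 1343 and 4756 CPM.

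All 76 members passed the filter on low values, a mean above 1 CPM in at least 1 genetic type, and 66 of them were above 1 CPM in every library. Together they made up between 6.97% and 9.21% of a library. Per kilobase of the listed length, averaged over the 8 livers, the highest member was SERPINA4 (ENSIPUG00000015660) with 5949 CPM per kb, followed by the fibrinogen gamma chain fgg with 3017, antithrombin serpinc1 with 2208, the C1r protease c1r with 2087 and the fibrinogen alpha chain fga with 1772. The livers of 1 type were not equally alike. The 2 PC livers differed at least 2-fold in 22 members (28.9%, against 30.6% of all tested genes), the PB livers in 16 (21.1% against 23.8%), the F1BC livers in 8 (10.5% against 12.2%) and the F1CB livers in 6 (7.89% against 18.0%).

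The parental species differed in 10 members. In PC the up-regulated members were c1s, c4, c5, PROC, cpb2 and f9a, and in PB they were f9b, serpinf1, c1ql3b and mblac1. These 10 DEGs were 13.2% of the members, and 15.8% of all tested genes were DEGs in the same comparison, a share close to that of the members. The median log2FC (PC minus PB) of the members was 0.04, and that of all tested genes was 0.02. Median-of-ratios scaling left 9 DEGs, 4 in favour of PC and 5 in favour of PB, since c5 and cpb2 were lost and cfd was added. A fit of the compared types only left 6 DEGs, 2 in favour of PC and 4 in favour of PB, since c5, cpb2, PROC and f9a were lost. There were 14 DEGs when PC replicate 2 was omitted and 6 when either PB replicate was. Counting every member with an adjusted p below 0.05 at any fold gave 14 (16.8% of all tested genes), of which 7 were higher in each species, and added c8g, C8A, cfi and plg. Without a test, both PC livers were above both PB livers in 21 members (29.5% of all tested genes) and both PB livers were above both PC livers in 23 (26.3%).

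**Figure D1:**
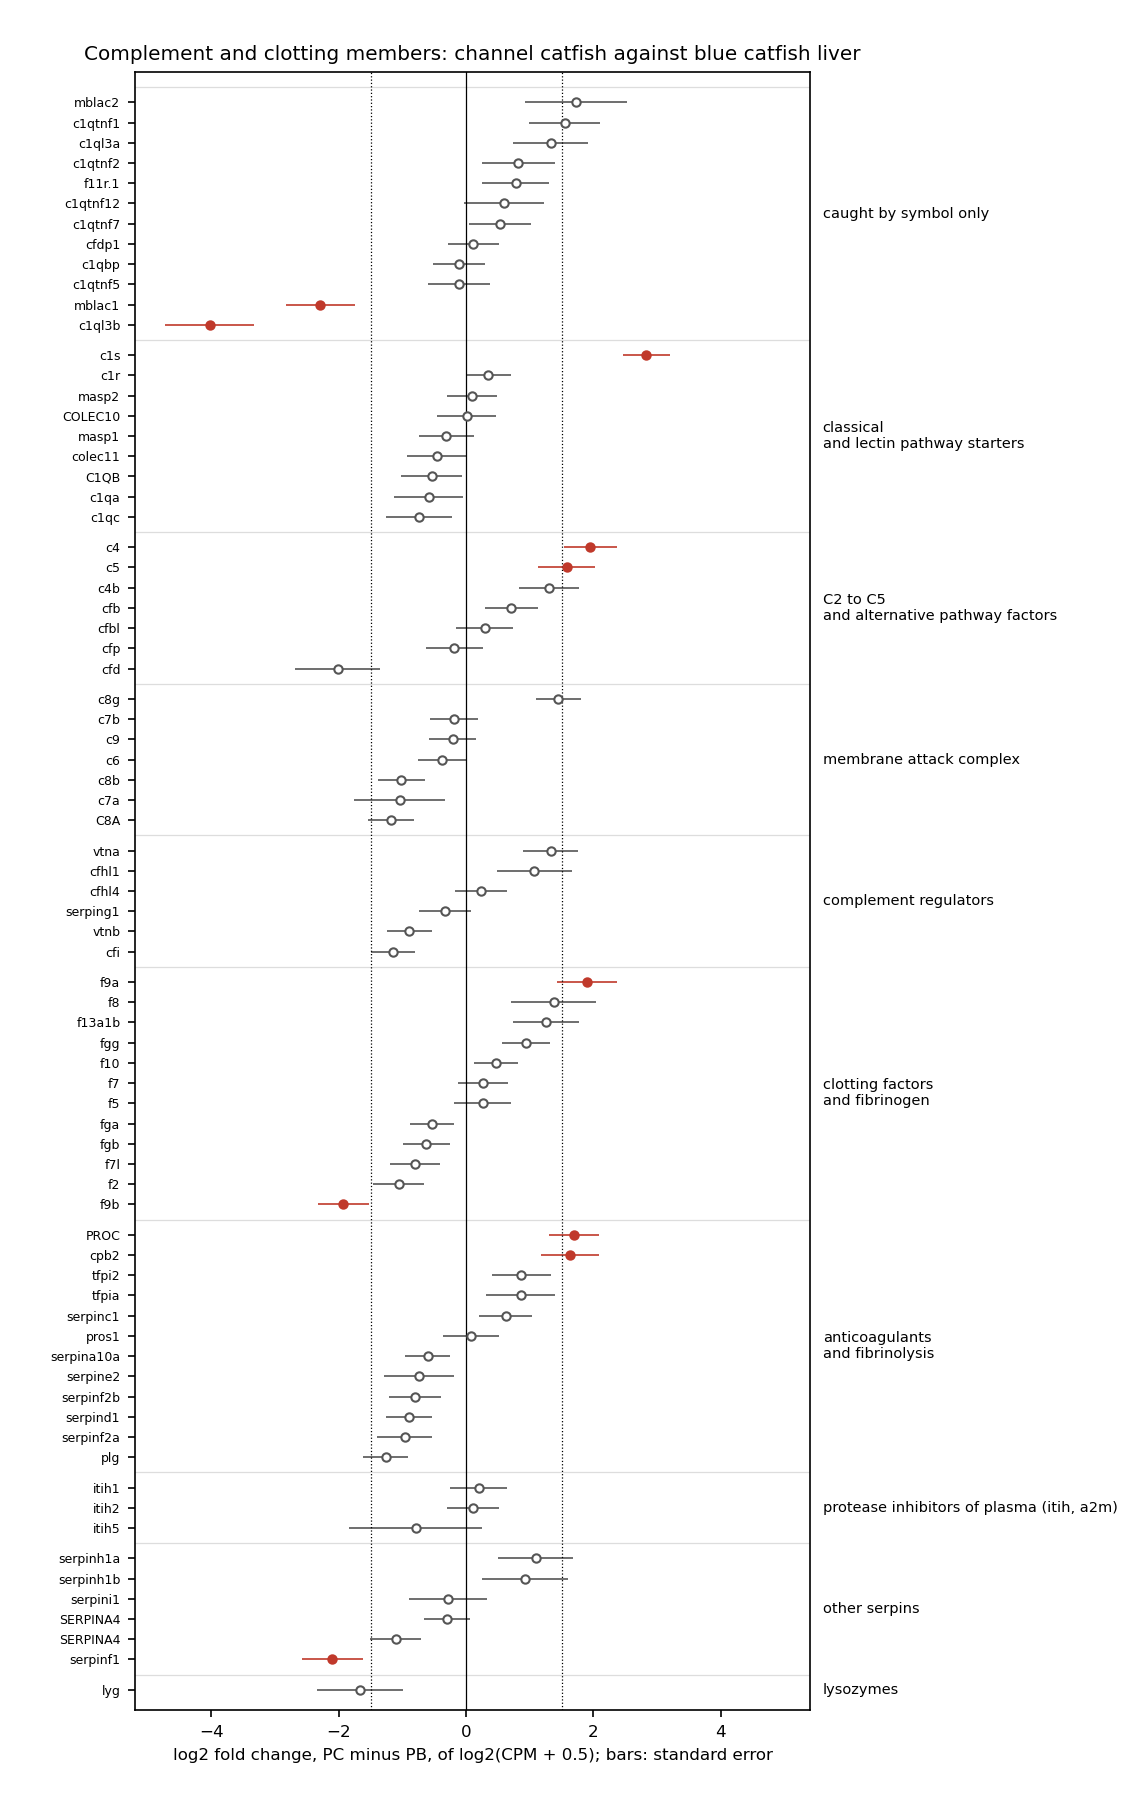
The log2FC of the members between PC and PB, with 1 of the 76 not drawn, (positive values are higher in PC) is drawn on the x axis with its standard error as a bar, grouped by role. Filled red points are the 10 DEGs, dotted lines mark an absolute log2FC of 1.5, and the points run from -4.03 (c1ql3b) to 2.83 (c1s).

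Among the 9 genes that start the classical and lectin pathways, 1 was a DEG between the species, against 15.8% of all tested genes. That share is the background for the count of each role group below. The gene named c1s, for the protease that C1r activates in the C1 complex, is described in the same table as a MASP2-like protease, so its identity is uncertain. Its level was 521 and 352 CPM in the PC livers, 57.9 and 61.7 in the PB livers, 328 and 386 in the F1BC livers and 294 and 228 in the F1CB livers. Both PB livers lay far below the 6 other livers, and the hybrids lay closer to PC than to PB. The PC mean was 7.30 times the PB mean (log2FC 2.83, SE 0.37, adjusted p = 0.000486), and the call held when each of the 8 libraries was left out in turn. The hybrids were also higher than PB (PB minus F1BC, log2FC -2.56, adjusted p = 0.00381; PB minus F1CB, log2FC -2.11, adjusted p = 0.0153). Of these, the F1BC call was lost without F1BC replicate 2, and the F1CB call without either PB or either F1CB replicate.

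The gene c1r was not a DEG, and whether the gene named c1s encodes its partner protease in the C1 complex is uncertain. The level of c1r, the first protease of the complex, was 5471 and 4898 CPM in the PC livers, 4751 and 3469 in the PB livers, 5123 and 6005 in the F1BC livers and 4059 and 3101 in the F1CB livers, and the ranges of PC and PB were close together (log2FC 0.35, SE 0.35, adjusted p = 0.525). Within each liver, the CPM of c1s over that of c1r, a ratio with no correction for gene length, was 0.0953 and 0.0718 in the PC livers, 0.0122 and 0.0178 in the PB livers, 0.0640 and 0.0643 in the F1BC livers and 0.0725 and 0.0734 in the F1CB livers. The ratio was thus lowest in both PB livers, while the hybrids reached the lower end of PC. The lectin pathway proteases masp1 and masp2 and the collectins COLEC10 and colec11, which recognise microbial sugars, were measured between 46.1 and 110.3 CPM, between 53.3 and 108 CPM, between 35.1 and 93.3 CPM and between 25 and 65.4 CPM, and none was a DEG in any comparison.

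The C1q chains, which recognise bound antibody and in mammals are made mainly by macrophages, followed another pattern. The level of c1qc was 21.2 and 35.7 CPM in the PC livers, 40.8 and 52.7 in the PB livers, 12.1 and 28.1 in the F1BC livers and 10.8 and 5.47 in the F1CB livers. Both F1CB livers were the lowest of the 8 and both PB livers the highest. The difference between PB and F1CB passed the test (log2FC 2.51, SE 0.52, adjusted p = 0.0356). It was lost without either PB or either F1CB replicate and after median-of-ratios scaling (adjusted p = 0.0546). The level of c1qa was 18.0 and 41.2 CPM in the PC livers, 37.6 and 45.5 in the PB livers, 11.9 and 24.7 in the F1BC livers and 11.6 and 5.4 in the F1CB livers. For C1QB it was 22.5 and 25.9 CPM in the PC livers, 28.2 and 44.3 in the PB livers, 14.7 and 25.6 in the F1BC livers and 10.8 and 5.85 in the F1CB livers. Both chains were also lowest in the F1CB livers. For neither was the difference from PB a DEG in the main fit (adjusted p = 0.0592 for c1qa and 0.0533 for C1QB). The main fit used all 8 libraries, CPM as deposited and genetic type as the only factor. Both chains passed with the replicate number as a block and without either PC replicate, and c1qa also in a fit of the compared types only.

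The sum of the macrophage and neutrophil markers, like the C1q chains, was lowest in the F1CB livers and highest in PB replicate 2, but differed in PB replicate 1. The 17 measured genes of a list of 20 marker symbols, of which cd74a was the most abundant, summed to 853 and 1424 CPM in the PC livers, 815 and 1740.2 in the PB livers, 776 and 1197 in the F1BC livers and 472 and 329.8 in the F1CB livers. The sums of the F1CB livers were the lowest, and that of PB replicate 1, at 815 CPM, was below both PC livers. In PB replicate 1 c1qc (40.8 CPM) and C1QB (28.2 CPM) were above both PC livers, and c1qa (37.6 CPM) lay between them. The median log2FC of these markers was 1.64 for PB minus F1CB, against 0.18 over all tested genes, with 0 DEGs, and 1.11 for PC minus F1CB, with 1 DEG. The defining markers csf1ra, MPEG1 and mpx were detected at between 0.653 and 5.21 CPM, between 0.965 and 9.0 CPM and between 0.238 and 11 CPM. Their part in the C1q result was not tested, and in bulk liver fewer cells of a type and less RNA per cell cannot be told apart.

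**Figure D2:**
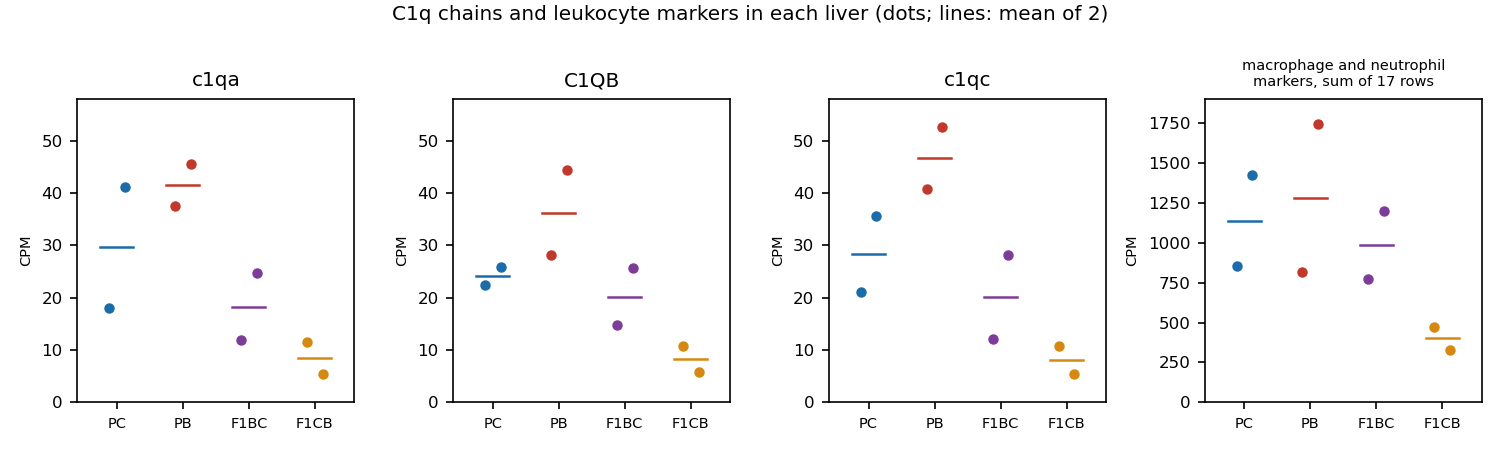
CPM in each liver (dots) and the mean of the 2 livers of a type (lines) are drawn for c1qa, C1QB and c1qc on a shared axis, and for the sum of the 17 macrophage and neutrophil markers on its own axis. In all 4 panels the F1CB livers are the lowest, with c1qc at 10.8 and 5.47 CPM.

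Among C2 to C5 and the alternative pathway factors, 2 of 7 members were DEGs between the species and both were higher in PC. The level of c4, the component cleaved by C1s and the MASP proteases, was 163 and 189 CPM in the PC livers, 32.0 and 63.4 in the PB livers, 132 and 158 in the F1BC livers and 51.9 and 43.9 in the F1CB livers. PC and F1BC lay high and PB and F1CB lay low. The difference between PC and PB was a DEG (log2FC 1.95, SE 0.42, adjusted p = 0.00882; lost without PB replicate 1, adjusted p = 0.0623). PC also differed from F1CB (log2FC 1.86, SE 0.42, adjusted p = 0.0423). That call was lost without PC replicate 1 or any of the 4 hybrid replicates, after median-of-ratios scaling and in a fit of the compared types only. PB minus F1BC had log2FC -1.67, adjusted p = 0.0585 and did not pass. It was a DEG after median-of-ratios scaling, with the replicate number as a block and without either PC replicate. The direct comparison of the hybrids gave F1CB minus F1BC log2FC -1.59, adjusted p = 0.275, which did not pass.

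A further C4 gene, c4b, was measured at 2899.8 and 1236 CPM in the PC livers, 709.7 and 832 in the PB livers, 630.0 and 1204 in the F1BC livers and 674 and 433 in the F1CB livers. PC replicate 1 was the highest liver and PC replicate 2 lay close to F1BC replicate 2. Between PC and PB c4b was not a DEG (log2FC 1.30, adjusted p = 0.0781) unless PC replicate 2 was left out. Between PC and F1CB it was a DEG with the replicate number as a block and without PC replicate 2. Since c4 and c4b are related copies and the handling of reads that map to both was not given, their separate levels are uncertain. The level of c5, from which C5a and the first part of the membrane attack complex are cut, was 2647 and 1025 CPM in the PC livers, 646 and 471 in the PB livers, 775 and 671 in the F1BC livers and 750.1 and 608 in the F1CB livers. The PC livers were above all others, but PC replicate 1 had 2647 CPM and PC replicate 2 had 1025. The DEG (log2FC 1.58, SE 0.44, adjusted p = 0.0307) was lost without PC replicate 1, either PB replicate or either F1CB replicate, and after median-of-ratios scaling (adjusted p = 0.0537). It was also lost in a fit of the compared types only (adjusted p = 0.0876).

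The alternative pathway showed no DEG in the main fit. Factor B is the protease of the alternative C3 convertase, and its gene cfb was measured at 1270.2 and 680.5 CPM in the PC livers, 715 and 451 in the PB livers, 577 and 648 in the F1BC livers and 512 and 369.8 in the F1CB livers (log2FC 0.71, adjusted p = 0.255). A related gene, cfbl, annotated as factor B/C2A, was measured at 1835 and 920.3 CPM in the PC livers, 861 and 1308 in the PB livers, 810.0 and 1527 in the F1BC livers and 703 and 653 in the F1CB livers (log2FC 0.29, adjusted p = 0.684). For both genes the PC and PB ranges overlapped, and cfb was a DEG between PC and F1CB when PC replicate 2 was left out. The properdin gene cfp, whose product stabilises that convertase, was measured between 167 and 464 CPM. Factor D cleaves factor B, and its gene cfd was far less abundant at 3.61 and 10.5 CPM in the PC livers, 14.5 and 48.7 in the PB livers, 2.95 and 7.47 in the F1BC livers and 11.6 and 16.5 in the F1CB livers. Both PB livers were above both PC livers, with the highest value in PB replicate 2, and the difference did not pass the test (log2FC -2.02, SE 0.66, adjusted p = 0.0560). After median-of-ratios scaling, with the replicate number as a block and without PC replicate 2 or PB replicate 1 it was a DEG. PB replicate 2 also had the highest sums of macrophage and neutrophil (1740 CPM), thrombocyte (327 CPM), endothelial (302 CPM) and stromal markers (1213 CPM). The lymphocyte sum was not highest there. The part of any of these cells in the cfd values was not tested.

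C3 is the component on which all routes converge, and 3 genes without a symbol were described as complement C3-like. They were picked by this description after the table had been seen. Their levels in each type went in different directions. ENSIPUG00000011979 was measured at 11611 and 6273 CPM in the PC livers, 586 and 464 in the PB livers, 2111 and 2124 in the F1BC livers and 2264 and 2553 in the F1CB livers. The 8 livers fell in 3 separate ranges, with PC highest, both hybrids together in the middle and PB lowest. The PC mean was 17 times the PB mean (log2FC 4.03, SE 0.38, adjusted p = 6.96e-05), and the call held without any 1 of the 8 libraries. PC was also higher than both hybrids (PC minus F1BC, log2FC 2.01, adjusted p = 0.0329; PC minus F1CB, log2FC 1.83, adjusted p = 0.0342), and PB was lower than both (PB minus F1BC, log2FC -2.02, adjusted p = 0.0171; PB minus F1CB, log2FC -2.20, adjusted p = 0.0139). The calls of PC against the hybrids were lost without PC replicate 1 or any hybrid replicate and after median-of-ratios scaling. Those of PB against a hybrid were lost without PB replicate 2 or either replicate of that hybrid.

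ENSIPUG00000009416 went the other way, at 1852 and 2094 CPM in the PC livers, 5069.9 and 4584 in the PB livers, 2431 and 4775 in the F1BC livers and 2376 and 2225 in the F1CB livers. Both PB livers were above both PC livers, the adjusted p was 0.0374 and the log2FC of -1.29 was under the fold threshold. ENSIPUG00000011888 was measured at 711 and 459 CPM in the PC livers, 564 and 480.4 in the PB livers, 364 and 525 in the F1BC livers and 540.0 and 464 in the F1CB livers and did not pass the test (log2FC 0.13, adjusted p = 0.839). The log2FC of ENSIPUG00000011979 was thus larger than that of any of the 76 members higher in PC. As copies of 1 gene family, these genes could share reads.

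**Figure D3:**
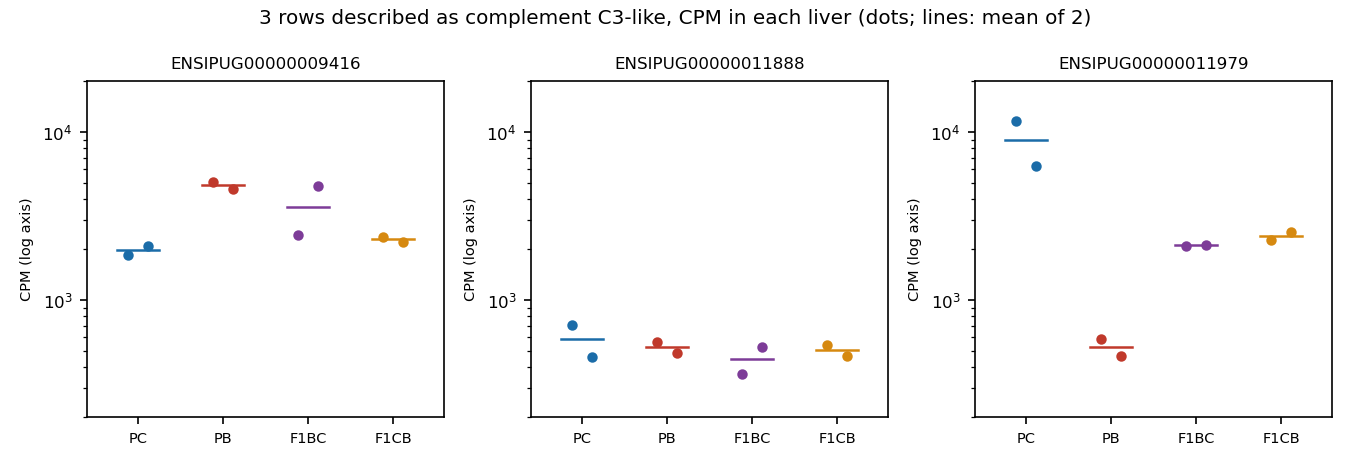
CPM in each liver (dots, log axis) and the mean of the 2 livers of a type (lines) are drawn for the 3 genes described as complement C3-like, on a shared axis. ENSIPUG00000011979 falls from 11611 and 6273 CPM in PC to 586 and 464 CPM in PB with the hybrids between, ENSIPUG00000009416 is higher in PB than in PC, and ENSIPUG00000011888 stays between 364 and 711 CPM.

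Of the 7 genes of the membrane attack complex, none was a DEG in any comparison, although the chains of C8 differed in opposite directions between the species. C8 is built of an alpha, a beta and a gamma chain. The gamma chain gene c8g was measured at 784 and 798 CPM in the PC livers, 285 and 294 in the PB livers, 600.0 and 620.3 in the F1BC livers and 533 and 375 in the F1CB livers. PC was highest, PB lowest and the hybrids between them, with an adjusted p of 0.0155 and a log2FC of 1.45, just under the fold threshold. The alpha chain gene C8A was measured at 160.5 and 196 CPM in the PC livers, 376 and 432 in the PB livers, 289 and 409 in the F1BC livers and 374 and 405 in the F1CB livers. It was higher in both PB livers than in both PC livers (log2FC -1.18, SE 0.36, adjusted p = 0.0415). The beta chain gene c8b was measured at 193 and 244 CPM in the PC livers, 397 and 489 in the PB livers, 316 and 470.2 in the F1BC livers and 437 and 390.4 in the F1CB livers and was higher in PB by its values only (log2FC -1.02, adjusted p = 0.0769).

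The within-liver ratio of c8g over C8A was 4.88 and 4.08 in the PC livers, 0.758 and 0.680 in the PB livers, 2.07 and 1.51 in the F1BC livers and 1.42 and 0.927 in the F1CB livers. It was above 4 in both PC livers and below 1 in both PB livers, and all 4 hybrid livers lay between. The ratio of C8A over c8b, in contrast, stayed between 0.802 and 1.04 in all 8 livers. These ratios belong to 16 pairs of members that were chosen after their values were seen. PC and PB did not overlap in 9 of the pairs, and all 4 hybrid livers lay between them in 5. C8A over c8b was among the 9, at 0.832 and 0.802 in PC and 0.947 and 0.885 in PB. No share over other pairs was computed. For single genes, both PC livers were above both PB livers in 29.5% of all tested genes, and the reverse held in 26.3%. PC and PB overlapped in the related pairs c4 over c4b, c7a over c7b, cfb over cfbl and serpinf2a over serpinf2b. The ratios are a description with no test, and they are read across livers only, since CPM does not correct for gene length.

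The late components c7b and c6, which join the complex before C8 and C9, had their highest values in F1CB. The level of c7b was 312 and 422 CPM in the PC livers, 395 and 435 in the PB livers, 422 and 245 in the F1BC livers and 887 and 1004 in the F1CB livers. For c6 it was 415 and 564 CPM in the PC livers, 541 and 732 in the PB livers, 475 and 343 in the F1BC livers and 842 and 1054 in the F1CB livers. In both genes the F1CB livers were above the 6 others. The difference between the reciprocal hybrids did not pass the test (F1CB minus F1BC, log2FC 1.55, adjusted p = 0.258 for c7b, log2FC 1.22, adjusted p = 0.413 for c6), and neither did that between a parent and F1CB, except for c7b between PC and F1CB when PC replicate 2 was left out. The pore-forming component c9, the most abundant of this group, was measured at 7181 and 4985 CPM in the PC livers, 6045 and 7937 in the PB livers, 3443 and 4890.0 in the F1BC livers and 5542 and 4953 in the F1CB livers, and its lowest value was in F1BC replicate 1. The second C7 gene, c7a, was measured at 17.3 and 49.5 CPM in the PC livers, 25.7 and 144 in the PB livers, 23.3 and 31.1 in the F1BC livers and 13.3 and 20.8 in the F1CB livers. Its F1CB mean was the lowest of the 4 types and its highest level was in PB replicate 2, so that neither c9 nor c7a followed c7b and c6.

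Among the 6 complement regulators there was no DEG, but factor I, which cleaves C3b and C4b, had an adjusted p below 0.05. The level of cfi was 994 and 1367 CPM in the PC livers, 2372 and 2818 in the PB livers, 1969.6 and 2119.9 in the F1BC livers and 2353 and 2315 in the F1CB livers. Both PC livers were the lowest of the 8, and the 4 hybrid livers lay just below PB (log2FC -1.15, SE 0.34, adjusted p = 0.0385). The C1 inhibitor gene serping1 was measured at 1622 and 2492 CPM in the PC livers, 3596 and 1774 in the PB livers, 3171 and 3708 in the F1BC livers and 2880.4 and 2409 in the F1CB livers, and the types overlapped. The genes cfhl4 and cfhl1 were measured between 1119 and 2304 CPM and between 109.7 and 550.4 CPM, with cfhl1 lowest in PB replicate 1. The table describes cfhl1 as a C4b-binding protein alpha chain-like gene, so its name is uncertain.

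Vitronectin binds the terminal complex and also cell surface integrins, and its 2 genes differed in opposite directions by their values. The level of vtna was 1043 and 499 CPM in the PC livers, 371 and 223 in the PB livers, 689 and 514 in the F1BC livers and 498 and 426 in the F1CB livers (log2FC 1.33, adjusted p = 0.0540). For vtnb it was 2193 and 1512 CPM in the PC livers, 4057 and 2812 in the PB livers, 2578 and 2670.0 in the F1BC livers and 2505 and 2446 in the F1CB livers (log2FC -0.89, adjusted p = 0.108). The ratio of vtna over vtnb within each liver was 0.475 and 0.330 in the PC livers, 0.0913 and 0.0792 in the PB livers, 0.267 and 0.192 in the F1BC livers and 0.199 and 0.174 in the F1CB livers. It was highest in PC and lowest in PB, with all 4 hybrid livers between. Neither gene was a DEG, but vtna passed without PC replicate 2.

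Complement receptors and regulators outside the name patterns were taken from a list of 25 symbols, of which 5 genes were measured. Of these 5, 3 were DEGs between the species, against 15.8% of all tested genes. Clusterin (clu), which in mammals keeps the terminal complex from inserting into membranes, was measured at 17.4 and 17.5 CPM in the PC livers, 199 and 743 in the PB livers, 232 and 382 in the F1BC livers and 171 and 132 in the F1CB livers. Both PC livers were the lowest of the 8, and PC was lower than PB (log2FC -4.42, SE 0.54, adjusted p = 0.000321) and lower than both hybrids (PC minus F1BC, log2FC -4.05, adjusted p = 0.00507; PC minus F1CB, log2FC -3.07, adjusted p = 0.0165). The integrin chain itgb2, part of the complement receptors of leukocytes, was higher in PB (log2FC -1.89, adjusted p = 0.0236), and susd4 was higher in PC (log2FC 1.97, adjusted p = 0.0385). The clu call between the species held without any 1 of the 8 libraries, that of itgb2 was lost without PC replicate 2 or PB replicate 2, and that of susd4 without any 1 of the 6 PC, PB and F1BC replicates. No such result is given for the clu calls against the hybrids. The macrophage and neutrophil markers lay the same way as itgb2 between the species (median log2FC -0.65 against 0.02 over all tested genes, 0 DEGs higher in PC and 3 higher in PB), and their part in the itgb2 value was not tested. The median log2FC of the 5 genes was -0.88.

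Among the 12 clotting factors and fibrinogen chains, 2 were DEGs between the species, and they were the 2 genes of factor IX, the protease that with factor VIII activates factor X. The level of f9a was 93.7 and 54.2 CPM in the PC livers, 28.8 and 12.1 in the PB livers, 41.8 and 39.3 in the F1BC livers and 40.5 and 39.6 in the F1CB livers. PC was highest and PB lowest, and the 4 hybrid livers lay together between them. The level of f9b was 46.6 and 59.3 CPM in the PC livers, 257 and 158 in the PB livers, 151 and 204 in the F1BC livers and 136 and 151 in the F1CB livers, with both PC livers the lowest of the 8. Thus f9a was higher in PC (log2FC 1.90, SE 0.47, adjusted p = 0.0183) and f9b was higher in PB (log2FC -1.93, SE 0.39, adjusted p = 0.00716). The first call was lost without PC replicate 1 (or PB replicate 2) and in a fit of the compared types only. The second was lost without PB replicate 1. The ratio of f9a over f9b within each liver was 2.01 and 0.914 in the PC livers, 0.112 and 0.0770 in the PB livers, 0.276 and 0.193 in the F1BC livers and 0.299 and 0.263 in the F1CB livers. It was between 0.914 and 2.01 in PC and far lower in the 6 other livers, lowest in PB. How reads shared by the copies were counted was not given.

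Fibrinogen, the precursor of the clot, is built of 3 chains, and their genes were among the most abundant members. The level of fgg was 10794 and 7917 CPM in the PC livers, 4072 and 5693 in the PB livers, 7356 and 10766 in the F1BC livers and 9040.4 and 7597 in the F1CB livers (log2FC 0.94, adjusted p = 0.101). That of fgb was 4152 and 6869.9 CPM in the PC livers, 8527 and 7986 in the PB livers, 7097 and 9794 in the F1BC livers and 8888 and 8182 in the F1CB livers (log2FC -0.63, adjusted p = 0.262). The level of fga was 3008 and 3910.2 CPM in the PC livers, 5766 and 4293 in the PB livers, 4684 and 5488 in the F1BC livers and 6578 and 5945 in the F1CB livers (log2FC -0.54, adjusted p = 0.313). None was a DEG, and fgg was highest in PC replicate 1 while fgb and fga were lowest there. The ratio of fgg over fgb was 2.60 and 1.15 in the PC livers, 0.478 and 0.713 in the PB livers, 1.04 and 1.10 in the F1BC livers and 1.02 and 0.928 in the F1CB livers, so that PC was above 1, PB below 1 and the hybrids between. The ratio of fga over fgb was 0.724 and 0.569 in the PC livers, 0.676 and 0.538 in the PB livers, 0.660 and 0.560 in the F1BC livers and 0.740 and 0.727 in the F1CB livers, and there PC and PB overlapped.

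The other clotting factors were not DEGs with all 8 libraries. Prothrombin (f2) was measured at 806 and 1771 CPM in the PC livers, 2366 and 2624 in the PB livers, 1912 and 1815 in the F1BC livers and 2662 and 2894 in the F1CB livers, lowest in PC replicate 1, and its difference did not pass (log2FC -1.06, adjusted p = 0.0874). Factor X (f10) was measured between 1177 and 2292 CPM and factor V (f5) between 398 and 976 CPM. The factor VII genes f7 and f7l, which respond to tissue factor, were measured between 96.5 and 201 CPM and between 31.0 and 83.0 CPM, and both PC livers were the lowest of the 8 for f7l (PC minus PB, log2FC -0.80, adjusted p = 0.179). The gene f13a1b, for a chain of the enzyme that cross-links fibrin, was low, at 16.3 and 29.9 CPM in the PC livers and 9.71 and 8.30 in the PB livers, and between 3.92 and 11 CPM in the 4 hybrid livers. Both PC livers were above the 6 others, and the difference from PB did not pass (log2FC 1.26, adjusted p = 0.117). The factor VIII gene f8 was measured between 0.467 and 3.68 CPM (log2FC 1.38, adjusted p = 0.174). Prothrombin was lower in PC than in PB and F1CB as a DEG without PC replicate 2.

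**Figure D4:**
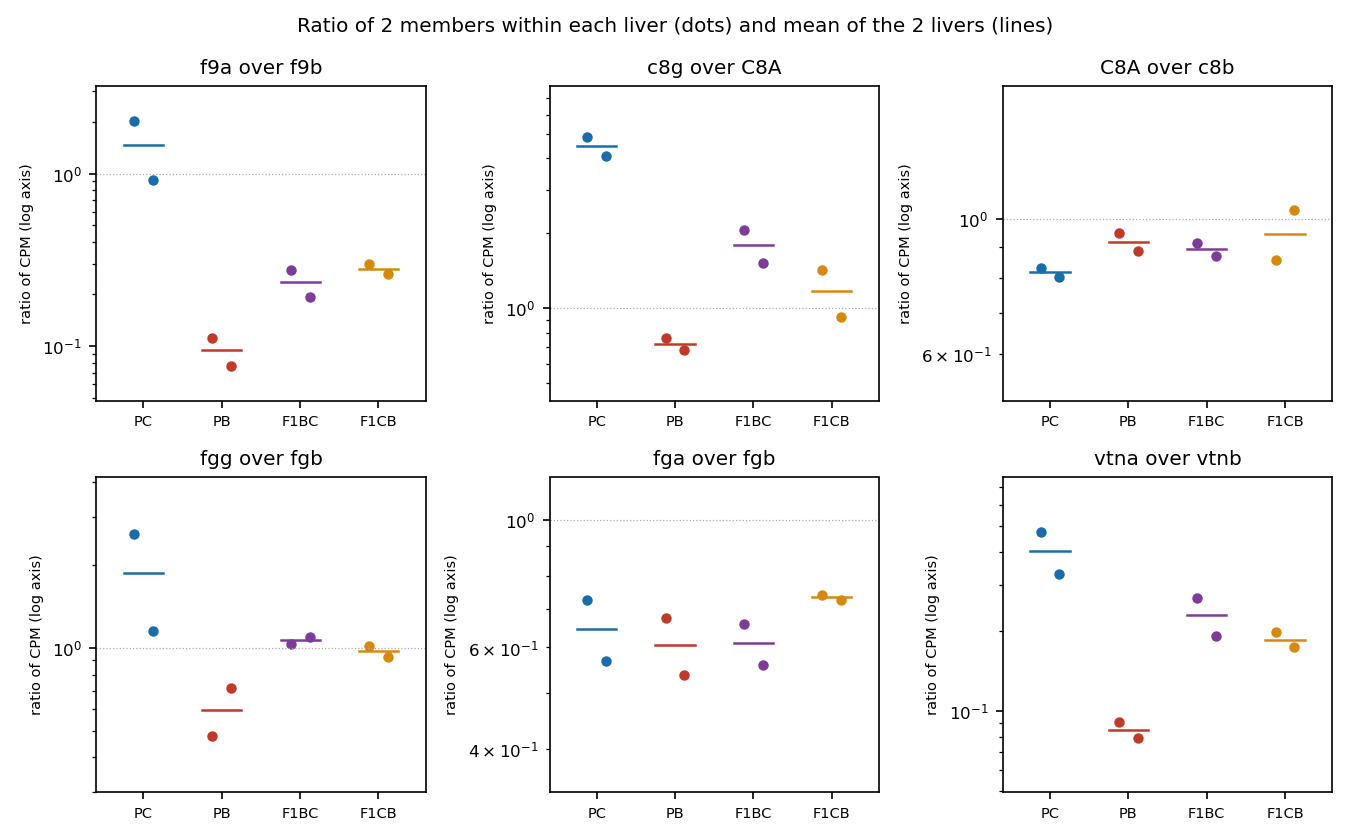
The ratio of the CPM of a pair of members within each liver (dots, log axis) and the mean of the 2 livers of a type (lines) are drawn for 6 pairs, with a dotted line at 1. They were selected from 16 pairs, of which 5 had all 4 hybrid livers between PC and PB. For f9a over f9b, c8g over C8A, fgg over fgb and vtna over vtnb the hybrids lie between PC and PB, while C8A over c8b stays between 0.802 and 1.04 and fga over fgb overlaps between PC and PB.

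Among the 13 anticoagulant and fibrinolysis genes, 2 were DEGs between the species, and both were higher in PC. Protein C, activated by thrombin, inactivates factors V and VIII, and its gene PROC was measured at 89.0 and 89.2 CPM in the PC livers, 35.5 and 20.8 in the PB livers, 91.3 and 99.1 in the F1BC livers and 88.3 and 96.9 in the F1CB livers. The PC livers and all 4 hybrid livers lay together, and both PB livers were lower. The difference between PC and PB was a DEG (log2FC 1.69, SE 0.39, adjusted p = 0.0132), as was that between PB and F1BC (log2FC -1.79, SE 0.39, adjusted p = 0.0371). PB minus F1CB had log2FC -1.75, adjusted p = 0.0506 and did not pass, although it was a DEG after median-of-ratios scaling and without 3 of the 8 libraries in turn (PC replicate 1, PC replicate 2 or PB replicate 1). The difference between PC and PB did not pass without PB replicate 2 or in a fit of the compared types only. That between PB and F1BC was lost without PB replicate 2 or any of the 4 hybrid replicates.

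The gene cpb2 encodes the carboxypeptidase that slows the dissolution of fibrin. Its level was 1995 and 804 CPM in the PC livers, 540.4 and 309 in the PB livers, 815 and 717 in the F1BC livers and 945 and 752 in the F1CB livers. PC replicate 1 was the highest, PC replicate 2 lay within the range of the hybrids, and PB was lowest. The DEG between PC and PB (log2FC 1.63, SE 0.46, adjusted p = 0.0304) was lost without PC replicate 1, PB replicate 2 or either F1CB replicate, and after median-of-ratios scaling (adjusted p = 0.0547). A fit of the compared types only lost it as well (adjusted p = 0.0819). Plasminogen, the precursor of plasmin, which cpb2 counteracts, differed in the other direction. The level of plg was 1642 and 1642 CPM in the PC livers, 4809 and 3230.0 in the PB livers, 3209.8 and 3759 in the F1BC livers and 4464 and 4014 in the F1CB livers. Both PC livers were the lowest, and the difference had an adjusted p of 0.0284 with a log2FC of -1.26 (SE 0.35), under the fold threshold. Without PB replicate 2 plg was a DEG.

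Antithrombin, the main inhibitor of thrombin and factor Xa, was abundant. The level of its gene serpinc1 was 5268 and 2460.0 CPM in the PC livers, 2935 and 1855 in the PB livers, 3109 and 3003 in the F1BC livers and 2785 and 2534 in the F1CB livers, with overlap between PC and PB (log2FC 0.63, adjusted p = 0.325). The heparin cofactor II gene serpind1 was measured at 370.4 and 374 CPM in the PC livers and 854 and 563 in the PB livers (log2FC -0.90, adjusted p = 0.104), and protein S (pros1), the cofactor of protein C, between 40.4 and 103 CPM. The plasmin inhibitor genes serpinf2a and serpinf2b were measured between 123 and 328 CPM and between 337 and 939 CPM. The tissue factor pathway inhibitor genes tfpia and tfpi2 were measured between 1.49 and 6.25 CPM and between 3.68 and 12.3 CPM. The transcript of serpine2, an inhibitor of thrombin, was low, at 1.54 and 1.92 CPM in the PC livers, 2.04 and 4.92 in the PB livers, 1.33 and 0.981 in the F1BC livers and 1.15 and 1.30 in the F1CB livers. All 4 hybrid livers lay below all 4 parental livers, an order that was lost after median-of-ratios scaling, and the departure from the mid-parent value did not pass (log2FC -0.77, adjusted p = 0.395).

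Clotting and fibrinolysis genes outside the name patterns were taken from a list of 32 symbols, of which 25 genes were measured. Between PC and PB 15.8% of all tested genes were DEGs. Of the 25 genes, 0 were DEGs higher in PC and 3 were DEGs higher in PB. They were von Willebrand factor (vwf), which carries factor VIII and tethers thrombocytes (log2FC -3.15, adjusted p = 0.00641), and the thrombin receptors f2r (log2FC -2.25, adjusted p = 0.0378) and F2RL3 (log2FC -1.52, adjusted p = 0.0464). The level of vwf was 0.980 and 0.304 CPM in the PC livers and 12.1 and 6.99 in the PB livers. The vwf call was lost without PB replicate 1 (adjusted p = 0.0529), and those of both receptors without any 1 of the 8 libraries except PC replicate 2. The median log2FC of the list was -0.10. Endothelial cells, which line vessels, make vwf, and endothelial markers also lay toward PB. Of the 13 measured genes of that list, 0 were DEGs higher in PC and 3 were DEGs higher in PB, vwf itself being 1 of the 3. The 13 genes, vwf included, had a median log2FC of -0.68, against 0.02 over all tested genes. Their summed level was 143 and 187 CPM in the PC livers, 183 and 302 in the PB livers, 149 and 95.1 in the F1BC livers and 138 and 214 in the F1CB livers, and PC and PB overlapped. The 10 measured thrombocyte markers summed to 160 and 191 CPM in the PC livers and 202 and 327 in the PB livers. Their median log2FC was -0.14, with 1 DEG higher in PC and 0 higher in PB. The part of either cell type in the vwf and receptor values was not tested.

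**Figure D5:**
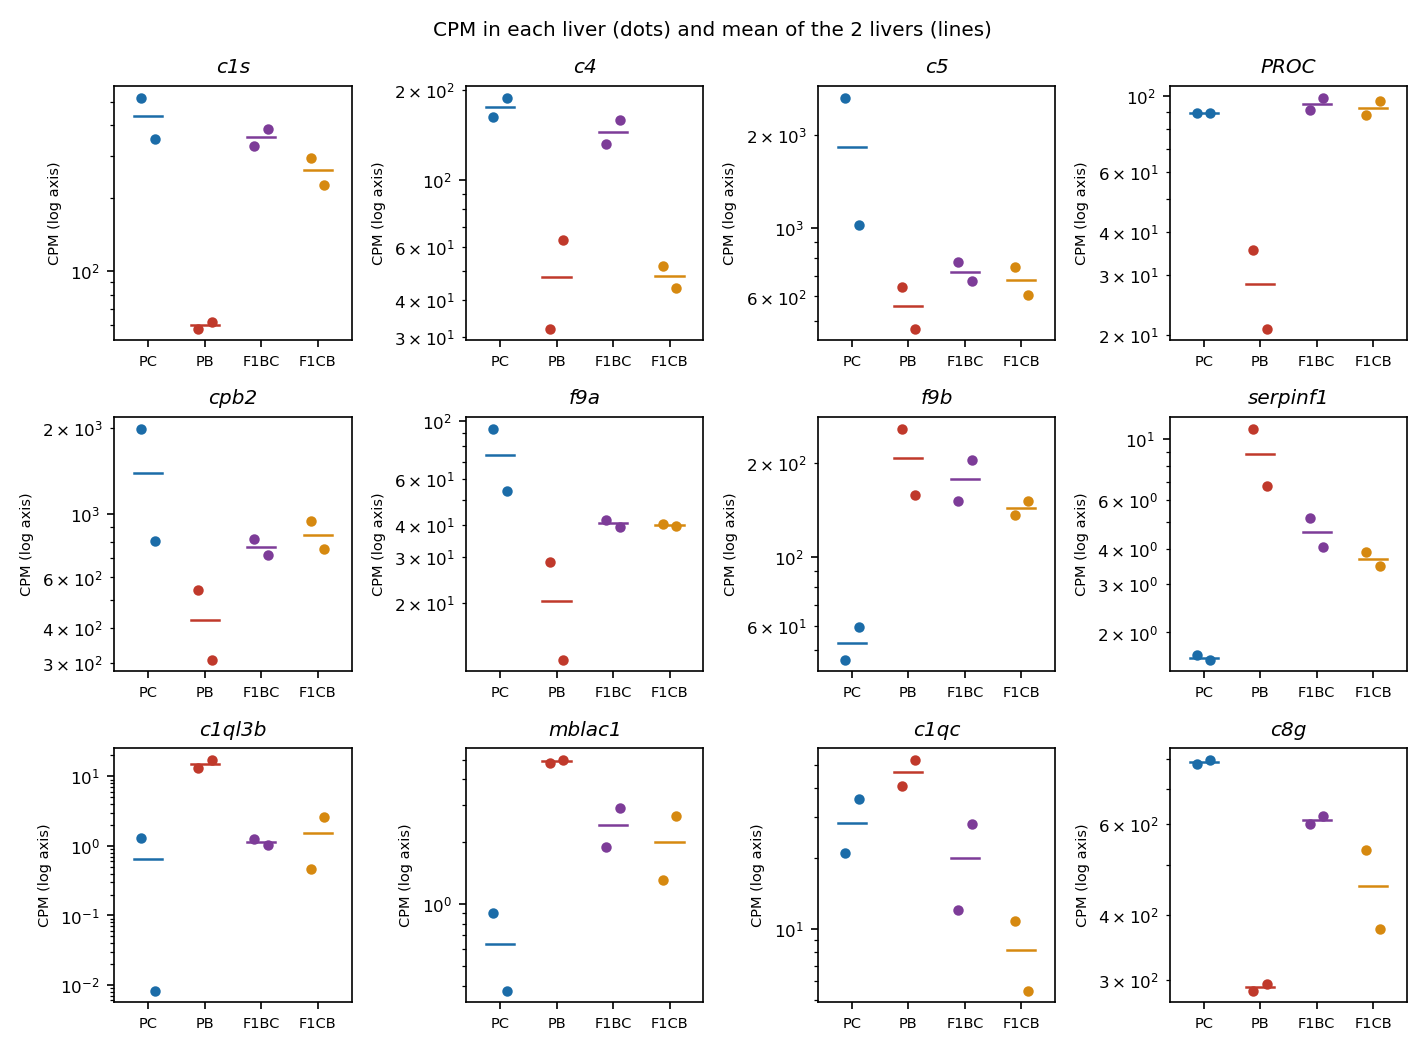
CPM in each liver (dots, log axis, 1 scale per panel) and the mean of the 2 livers of a type (lines) are drawn for the 11 members that were DEGs in at least 1 comparison and for c8g. In c1s and PROC the hybrids lie near PC, in f9a and c8g between the species, and in c4 F1BC lies near PC while F1CB lies near PB.

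The inter-alpha-trypsin inhibitor heavy chains, which bind hyaluronan in the matrix, showed no DEG. The level of itih1, which the table describes as heavy chain 3, was 4224 and 2242 CPM in the PC livers, 4107 and 1757 in the PB livers, 2904 and 3366 in the F1BC livers and 2204 and 2179 in the F1CB livers. For itih2 it was 2479.8 and 1486 CPM in the PC livers, 2463 and 1282 in the PB livers, 3239 and 3415 in the F1BC livers and 2041 and 1626 in the F1CB livers. In both parental species replicate 1 was the higher liver for both genes. The third gene, itih5, was measured between 0.159 and 11.9 CPM, with the lowest value in PC replicate 2, and was a DEG between PC and PB only without PC replicate 1. Alpha-2-macroglobulin is a broad protease inhibitor of plasma, and of 5 genes without a symbol that were described as alpha-2-macroglobulin-like, 2 were DEGs, both higher in PC (log2FC 2.44, adjusted p = 0.00383 for ENSIPUG00000010578 and log2FC 2.01, adjusted p = 0.0126 for ENSIPUG00000009713). In the 3 others both PC livers were also above both PB livers, an order found in 29.5% of all tested genes. Their log2FC values ran from 0.58 to 1.13, and none of these passed the test. The 5 genes have the same description and could share reads.

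The first was ENSIPUG00000010578, at 3934 and 1531 CPM in the PC livers, 381 and 539 in the PB livers, 726 and 633 in the F1BC livers and 654 and 819.8 in the F1CB livers (log2FC 2.44, SE 0.45, adjusted p = 0.00383). The other was ENSIPUG00000009713, at 6723 and 2577 CPM in the PC livers, 778 and 1365 in the PB livers, 1435 and 1847 in the F1BC livers and 1254 and 1247 in the F1CB livers (log2FC 2.01, SE 0.46, adjusted p = 0.0126). In both genes the PC livers were above all others and PC replicate 1 was the highest. The call of ENSIPUG00000010578 held without any 1 of the 8 libraries, and that of ENSIPUG00000009713 was lost without PC replicate 1 or PB replicate 1.

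Of the other 6 serpins, 1 was a DEG between the species. The gene serpinf1 encodes pigment epithelium-derived factor, a serpin without inhibitory activity that in mammals restrains blood vessel growth. Its level was 1.65 and 1.59 CPM in the PC livers, 10.9 and 6.77 in the PB livers, 5.20 and 4.06 in the F1BC livers and 3.92 and 3.48 in the F1CB livers. The 8 livers fell in 3 ranges, with PC lowest, the hybrids in the middle and PB highest (log2FC -2.10, SE 0.48, adjusted p = 0.0121; lost without PB replicate 1, adjusted p = 0.0731). The abundant SERPINA4 gene (ENSIPUG00000015660) was measured at 10639 and 11113 CPM in the PC livers, 10385 and 17121 in the PB livers, 11508 and 14474 in the F1BC livers and 10741 and 10687 in the F1CB livers, and the types overlapped (log2FC -0.29, adjusted p = 0.612). The other gene with this symbol (ENSIPUG00000015641) was measured at 281 and 203 CPM in the PC livers, 422 and 627 in the PB livers, 233 and 375 in the F1BC livers and 185 and 167 in the F1CB livers and did not pass (log2FC -1.11, adjusted p = 0.0745). This second gene was a DEG between PB and F1CB when either PC replicate was left out.

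Lysozyme breaks bacterial cell walls, and the name patterns took 1 lysozyme gene, the goose-type lyg. Its level was 2.49 and 4.88 CPM in the PC livers, 6.65 and 22.3 in the PB livers, 3.18 and 7.31 in the F1BC livers and 3.04 and 8.85 in the F1CB livers. PB replicate 2 was the highest liver, and the difference between PC and PB did not pass the test (log2FC -1.67, SE 0.68, adjusted p = 0.111). With the replicate number as a block the difference was a DEG. A further 3 lysozyme genes were found by their description. ENSIPUG00000014678, lysozyme g-like, was measured at 23.3 and 15.6 CPM in the PC livers, 7.76 and 4.93 in the PB livers, 6.91 and 5.92 in the F1BC livers and 7.38 and 4.32 in the F1CB livers and was higher in PC (log2FC 1.55, SE 0.48, adjusted p = 0.0447). That call was lost after median-of-ratios scaling (adjusted p = 0.0549) and without any 1 of the 8 libraries except PC replicate 2. ENSIPUG00000014688, also lysozyme g-like, was measured at 10.9 and 31.2 CPM in the PC livers, 26.2 and 60.8 in the PB livers, 11.2 and 18.5 in the F1BC livers and 9.72 and 5.66 in the F1CB livers (log2FC -1.09, adjusted p = 0.221), and lysozyme c (lysc) was measured between 0.651 and 11.5 CPM (log2FC 0.45, adjusted p = 0.766). The lysozyme genes thus had no common direction between the species. The sums of macrophage and neutrophil, thrombocyte, endothelial and stromal markers were also highest in PB replicate 2. The part of any of these cells in the lysozyme values was not tested.

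Of the 12 genes taken by their symbol only, 2 were DEGs between the species and both were higher in PB. The gene c1ql3b encodes a secreted C1q-domain protein that is not a chain of complement C1q. Its level was 1.29 and 0.00824 CPM in the PC livers, 13 and 17.4 in the PB livers, 1.27 and 1.02 in the F1BC livers and 0.461 and 2.58 in the F1CB livers. Both PB livers were far above the 6 others (log2FC -4.03, SE 0.70, adjusted p = 0.00292; held without any 1 of the 8 libraries). PB was also higher than F1BC (log2FC 3.25, adjusted p = 0.0340) and F1CB (log2FC 3.18, adjusted p = 0.0480). Both of these calls were lost with a pseudocount of 0.1 and without any 1 of the replicates compared, and that against F1CB also without either F1BC replicate. The gene mblac1, a metallo-beta-lactamase domain protein, was measured at 0.896 and 0.377 CPM in the PC livers, 4.82 and 5.0 in the PB livers, 1.88 and 2.92 in the F1BC livers and 1.30 and 2.67 in the F1CB livers (log2FC -2.29, SE 0.55, adjusted p = 0.0146; lost without either PB replicate). The hybrids lay between the species.

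The most abundant of these 12 genes were c1qbp, a mitochondrial protein that can bind C1q, and cfdp1, a craniofacial development protein. The level of c1qbp was 29.3 and 20.0 CPM in the PC livers, 26.1 and 26.2 in the PB livers, 15.2 and 19.1 in the F1BC livers and 22.2 and 24.3 in the F1CB livers. That of cfdp1 was 24.1 and 22.5 CPM in the PC livers, 23.3 and 19.8 in the PB livers, 18.0 and 14.9 in the F1BC livers and 12.7 and 15.1 in the F1CB livers. Neither was a DEG. In cfdp1 all 4 hybrid livers lay below all 4 parental livers, an order that was lost after median-of-ratios scaling.

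Comparisons with the hybrids gave few DEGs among the members. PC and F1BC differed in 0 members (0.805% of all tested genes). At an unadjusted limma p below 0.05 they differed in 16 members (21.1%, against 19.3% of all tested genes). PC and F1CB differed in 1 (2.03% of all tested genes), which was c4. PB and F1BC differed in 3 (2.28%), of which c1s and PROC were higher in the hybrid and c1ql3b was higher in PB. PB and F1CB differed in 3 (1.42%), of which c1s was higher in the hybrid and c1qc and c1ql3b were higher in PB. Leaving out PC replicate 2 raised the count for PC and F1CB to 7 and that for PC and F1BC to 2, and without either PC replicate the counts were 5 for PB and F1BC and 7 for PB and F1CB. Without PB replicate 2 these last counts were 1 and 0, without PB replicate 1 they were 2 and 1, and leaving out a hybrid replicate gave 0 for PC and F1CB and as few as 0 for PB against either hybrid. These comparisons share the parental livers with each other and with that of PC and PB.

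No member passed the test of a departure of the hybrids from the mid-parent value (0 DEGs, 0.0447% of all tested genes). At an unadjusted limma p below 0.05 there were 14 members (18.4%, against 14.1% of all tested genes). The median log2FC from the mid-parent value was -0.02 over the members and -0.25 over all tested genes. It was 0.21 over acute phase and other liver plasma proteins and 0.16 over the hepatocyte markers. Outside the name patterns it was -0.21 over clotting and fibrinolysis genes and -0.58 over complement receptors and regulators. Median-of-ratios scaling moved the median of all genes to 0.02 and that of the members to 0.29, and it raised the number of members above the mid-parent value from 37 to 49. All 4 hybrid livers lay above all 4 parental livers in 0 members (0.38% of all tested genes) and below them in 2 (4.95%), which were cfdp1 and serpine2.

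For the 10 DEGs between the species, the level of each hybrid was placed on a log2 scale from 0 (PC) to 1 (PB). The hybrids lay at the PC end for PROC, at -0.06 in F1BC and -0.03 in F1CB, and close to it for c1s, at 0.09 and 0.26, and c1ql3b, at 0.19 and 0.21. They lay near the middle for f9a (0.43 and 0.43), cpb2 (0.45 and 0.36), serpinf1 (0.60 and 0.47) and mblac1 (0.60 and 0.48), and toward PB for f9b (0.90 and 0.74) and c5 (0.76 and 0.82). Only c4 placed the reciprocal hybrids at different ends among these 10, with F1BC at 0.14 and F1CB at 0.96. These positions carry no error of their own and rest on 2 livers a type.

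The reciprocal hybrids F1CB and F1BC, which differ in which species was the mother, differed in 0 members (0.149% of all tested genes). At an unadjusted limma p below 0.05 they differed in 8 members (10.5%, against 8.08% of all tested genes). Both F1BC livers were above both F1CB livers in 32 members (17.4% of all tested genes), and both F1CB livers were above both F1BC livers in 13 (28.7%). The median log2FC (F1CB minus F1BC) was -0.21 over the members and 0.15 over all tested genes, and after median-of-ratios scaling -0.37 over the members and -0.00 over all. Before that scaling it was -0.22 over acute phase and other liver plasma proteins and -0.22 over the hepatocyte markers. Outside the name patterns it was -0.31 over clotting and fibrinolysis genes and -0.56 over complement receptors and regulators. The direction was thus not particular to the members. Of the 8 members with an unadjusted p below 0.05, c7b, c6, cfd, c1qtnf2 and c1qtnf7 were higher in F1CB and c4, C1QB and c1qc were higher in F1BC, and none passed the adjusted test.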

How the data were processed

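The processed table held liver RNA-seq values of 8 libraries, 2 for each of 4 genetic types. The authors sequenced poly(A) libraries from both ends, trimmed with Trimmomatic, aligned to the genome of channel catfish using TopHat 2.1.1, counted per gene model using BedTools 2.29.0 and tested with edgeR. The build, the use of strand in counting and the handling of multiply mapped reads are not given in the sources used here.

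The authors name the deposited unit RPKM, but the values behave as CPM, since each library sums to between 996838 and 998652. The mean also differs from the authors' deposited log2 average by a median of -0.00892 as it stands and of -1.68 after division by gene length. That log2 column was used only for this check. Whole reads could not be recovered, so no counting interval is given.

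Genes with a mean above 1 CPM in at least 1 type (13420 of 13444) were tested as log2(CPM + 0.5) with limma 3.58.1 in R 4.3.3, with all 8 libraries in 1 fit, a mean-dependent prior (trend), genetic type as the only factor and p-values adjusted by the Benjamini-Hochberg method separately for the 7 comparisons. The study's thresholds were used (adjusted p below 0.05, absolute log2FC above 1.5). The script was tested on simulated data. Alternatives were pseudocounts of 0.1 and 1, median-of-ratios scaling, filters of 5 CPM or none, a fit of the compared types only, a replicate block and leaving out each library.

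The members, roles and lists (complement receptors, clotting, acute phase and cell type markers) were chosen with earlier results of these data known. Named in the text were every member that was a DEG in any comparison, the 2 most abundant members of each role, the lysozyme, C5 and factor B members, and members whose hybrid livers all lay outside the parental livers. Members named beyond this, the ratios of pairs and the genes found by description were chosen after their values were seen. A few genes are counted in the totals but not reported here by name.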

Additional observations from a re-analysis of the deposited data

How the results depend on the processing

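No DEG of a member changed direction under any alternative. Median-of-ratios scaling did change the sign of the median log2FC of the members, from 0.13 to -0.26 for PC minus F1BC, from 0.01 to -0.34 for PB minus F1BC, from 0.12 to -0.07 for PB minus F1CB and from -0.02 to 0.29 for the hybrids minus the mid-parent value. The count of member DEGs between PC and PB was 10. It was 10 with a pseudocount of 0.1 or 1 and 9 after median-of-ratios scaling, and 6 in a fit of the compared types only. Median-of-ratios scaling gave 1 DEG for PC and F1BC, 0 for PC and F1CB, 1 member with all hybrid livers above the parents and 0 with all below. The fit of the compared types only gave 0 for PC and F1CB, and the filter at 5 CPM left 1 member below the parents. Leaving out each library in turn gave 6 to 14 DEGs for PC and PB, 0 to 2 for PC and F1BC, 0 to 7 for PC and F1CB, 0 to 5 for PB and F1BC, 0 to 7 for PB and F1CB, 0 to 2 members above the parents and 2 to 9 below, and 0 DEGs throughout for F1CB and F1BC and for the mid-parent value. PC replicate 2 gave the highest count for PC and PB, and F1BC replicate 2 the highest count below the parents. With a library left out, fewer livers have to meet the order of hybrids and parents, so those counts can rise for that reason alone. The cause of the changes in the DEG counts was not tested. With the replicate number as a block the counts were 12 for PC and PB, 1 for PC and F1BC, 2 for PC and F1CB, 5 for PB and F1BC and 6 for PB and F1CB. The labels do not say whether same-numbered fish share anything beyond the number. Deviations of same-numbered livers correlated at -0.01 to 0.14 between types, which cannot decide whether they share a batch.

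With 2 livers a type, p-values of the main fit rest on the spread between same-type livers, pooled over all genetic types. The mean-dependent prior also enters them. They do not measure the spread of the compared fish alone. That spread was unequal, with at least 2-fold differences between same-type livers in 12.2% (F1BC) to 30.6% (PC) of all tested genes. A p-value of PB against a hybrid thus also depends on the PC livers, which are not compared. Genetic type and tank cannot be told apart, and neither can expression and how well blue catfish reads map to the channel catfish genome. Median-of-ratios scaling moved the median log2FC of all genes from 0.37 to 0.01 for PC minus F1BC and from 0.35 to 0.01 for PB minus F1BC, so directions of small differences from F1BC depend on the scaling. Unknown depth limits the low members, such as c1ql3b, mblac1 and serpinf1.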

Other observations

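A list of 35 symbols held acute phase genes, such as il6r and cebpb, beside other plasma proteins of the liver. Of this list 26 genes were measured. Between PC and PB, 3 were DEGs higher in PC and 5 were DEGs higher in PB, with 15.8% of all tested genes as DEGs. The median log2FC of the list was -0.44, against 0.02 over all tested genes. The level of haptoglobin (hp), which binds free haemoglobin, was 252 and 1331 CPM in the PC livers, 4639 and 5594 in the PB livers, 2279 and 3271 in the F1BC livers and 2731 and 1780.4 in the F1CB livers. Both PC livers were the lowest (log2FC -3.14, SE 0.61, adjusted p = 0.00521). The interleukin-6 receptor gene il6r, through which the acute phase response is triggered in mammals, was also higher in PB (log2FC -3.26, adjusted p = 0.000321), as were cebpb, hgfb and ttr. Among the genes higher in PC were pon1 (log2FC 1.75, adjusted p = 0.0123) and a transferrin gene, tfa (log2FC 1.71, adjusted p = 0.00542). The calls of hp, il6r and tfa held without any 1 of the 8 libraries. Those of pon1, ttr, hgfb and cebpb were each lost without PB replicate 2, and those of pon1, hgfb and cebpb also without PC replicate 1, ttr without PC replicate 2, cebpb without PB replicate 1 and hgfb without any 1 hybrid replicate.

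Among all 20 genes found by their description rather than their symbol, 6 were DEGs between PC and PB, against 15.8% of all tested genes. Of these 6, the C3-like, lysozyme and alpha-2-macroglobulin-like genes are given above. The alpha-1-antitrypsin homolog ENSIPUG00000012784 was measured at 0.140 and 1.39 CPM in the PC livers, 26.8 and 59.8 in the PB livers, 9.96 and 13.2 in the F1BC livers and 12.6 and 14.2 in the F1CB livers. PC was lowest, PB highest and the 4 hybrid livers lay between (log2FC -5.2, SE 0.58, adjusted p = 0.000182; held without any 1 of the 8 libraries). PC was also lower than F1BC (log2FC -3.44, adjusted p = 0.0203; lost without PC replicate 1 or either F1BC replicate) and F1CB (log2FC -3.66, adjusted p = 0.0118; lost without either F1CB replicate). The complement factor H-like gene ENSIPUG00000021654 was measured at 135 and 76.3 CPM in the PC livers, 30.6 and 17.2 in the PB livers, 64.8 and 39.0 in the F1BC livers and 27.0 and 33.2 in the F1CB livers and was higher in PC (log2FC 2.12, SE 0.47, adjusted p = 0.01; lost without PC replicate 1 or PB replicate 2).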
